A study of Mus musculus with 6 samples.

Results

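The genes of milk proteins and of the milk fat globule were followed in early mammary tumors of mice with and without JAM-A, the junctional adhesion molecule encoded by F11r. The list named 10 genes: the caseins Csn1s1, Csn1s2a, Csn2 and Csn3, the whey protein genes Wap and Lalba, the milk fat globule genes Btn1a1, Xdh and Mfge8, and Glycam1. A gene was measured when the platform annotation paired a probe set with its symbol alone, and the probe set with the highest mean over the 6 tumors was then taken. This gave 9 of the 10 genes, of 19938 genes measured in this way. The only probe set listed for Lalba is also paired with Trip12, and no value is given for it. Each of the 9 genes had 1 probe set.

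RNA came from 3 tumors of the genotype MMTV-PyMT JAM-A KO (tumors 5333, 5346 and 5347, titled JamA-) and 3 of the genotype MMTV-PyMT (tumors 5369, 5370 and 5393, titled JamA+), resected early in tumor development and hybridized to 1 Affymetrix array each. All 6 tumors carry the polyoma virus middle T oncogene, which the MMTV promoter drives in the mammary epithelium, and the knockout mice lack JAM-A in every cell, not in the tumor cells alone. No treatment, age or reproductive state is given for single tumors. Whether the 3 tumors of a genotype were taken from different animals is not stated, and a p-value here speaks only for the spread among these tumors, which may be technical. F11r lay between 5.55 and 6.53 on the log2 scale in JamA- and between 10.1 and 10.47 in JamA+ tumors, so all 6 arrays matched their labels. The 10 luminal epithelial markers, among them Krt8, Krt18 and Epcam, were measured in all tumors, and their mean deviation from each gene's own mean stayed between -0.29 (tumor 5369) and 0.22 (tumor 5347). Krt7 and Krt18, the ones with the smallest p, both had a difference of 0.34 between the genotypes.

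Caseins are the main proteins of milk. Alpha-caseins and beta-casein carry calcium phosphate in micelles, and kappa-casein caps the micelle surface. Their genes lie in 1 cluster and are switched on in alveolar luminal cells in pregnancy, when prolactin acts through its receptor and JAK2 on STAT5, together with glucocorticoid and the alveolar factor ELF5. Whey acidic protein and alpha-lactalbumin, the subunit that turns galactosyltransferase into lactose synthase, are made later in this programme, and butyrophilin (Btn1a1), xanthine oxidoreductase (Xdh) and lactadherin (Mfge8) belong to the membrane that wraps secreted fat droplets. Glycam1 is a mucin-like protein of milk that is also made by the high endothelium of lymph nodes. Mfge8 and Xdh are known in other cells too, Mfge8 in macrophages.

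The sequences before the start sites are shown as a description of their letters, and their part in the spread between tumors was not tested. RefSeq windows of the build GRCm38.p6 were at hand for 7 of the 10 genes (Csn1s1, Csn2, Csn1s2a, Mfge8, Wap, Lalba and Glycam1). The 250 bases before the start were searched for TTCNNNGAA, a core to which STAT5 binds and which reads the same on both strands. Shown are 4 genes that varied widely and Wap, which did not, a choice made after their values were seen. Btn1a1, which varied widely, and Csn3 and Xdh, which did not, had no window. Capitals mark a match.
Csn1s1, chr5:87665958-87666207, plus strand: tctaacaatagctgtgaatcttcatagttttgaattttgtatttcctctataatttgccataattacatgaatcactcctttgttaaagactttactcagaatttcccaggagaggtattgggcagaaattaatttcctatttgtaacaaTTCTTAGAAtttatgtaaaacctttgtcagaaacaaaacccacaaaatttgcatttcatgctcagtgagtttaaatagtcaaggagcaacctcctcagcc
Csn2, chr5:87699426-87699675, minus strand: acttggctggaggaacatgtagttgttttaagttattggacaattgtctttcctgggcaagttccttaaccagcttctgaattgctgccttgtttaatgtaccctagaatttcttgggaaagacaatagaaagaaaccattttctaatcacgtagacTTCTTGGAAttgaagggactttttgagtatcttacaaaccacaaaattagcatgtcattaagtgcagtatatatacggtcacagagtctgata
Csn1s2a, chr5:87774200-87774449, plus strand: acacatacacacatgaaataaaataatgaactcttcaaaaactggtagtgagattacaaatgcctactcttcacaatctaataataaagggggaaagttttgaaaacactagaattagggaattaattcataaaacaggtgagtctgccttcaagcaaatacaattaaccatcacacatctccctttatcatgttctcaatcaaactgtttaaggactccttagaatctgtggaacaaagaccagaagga
Glycam1, chr15:103565082-103565331, minus strand: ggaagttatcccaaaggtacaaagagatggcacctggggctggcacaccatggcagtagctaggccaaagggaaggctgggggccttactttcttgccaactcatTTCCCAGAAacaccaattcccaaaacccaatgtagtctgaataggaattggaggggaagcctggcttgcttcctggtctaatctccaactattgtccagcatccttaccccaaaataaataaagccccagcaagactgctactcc
Wap, chr11:6638650-6638899, minus strand: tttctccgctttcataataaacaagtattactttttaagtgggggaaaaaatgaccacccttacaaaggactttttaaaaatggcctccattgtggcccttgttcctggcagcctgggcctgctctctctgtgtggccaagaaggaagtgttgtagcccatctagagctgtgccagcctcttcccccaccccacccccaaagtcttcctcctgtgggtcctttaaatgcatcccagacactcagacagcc

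Csn1s1 held TTCTTAGAA beginning 100 bases before the start, Csn2 held TTCTTGGAA beginning 93 bases before it, and Glycam1 held TTCCCAGAA beginning 145 bases before it. The windows of Csn1s2a, Wap, Mfge8 and Lalba held none, although a window running on to 50 bases past the start held TTCTTAGAA in Csn1s2a, beginning at base 21 after it. Of all 32851 RefSeq windows of 250 bases, 7.02% held the letters TTCNNNGAA. The letters TTGCNNAA, a core for C/EBP factors searched on both strands, were in 9.56% of all windows and in none of these 7. A match is a description of the letters and not a site shown to be used.

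The 9 measured genes fell apart by how much they varied between tumors. Csn1s1, Csn1s2a, Csn2, Glycam1 and Btn1a1 had a standard deviation over the 6 tumors of at least 0.5 on the log2 scale, which 2.31% of all genes had, and Csn3, Wap, Xdh and Mfge8 were below it. The difference between the highest and the lowest tumor was 5.3 for Csn1s2a, 5.28 for Csn2, 3.51 for Glycam1, 3.5 for Csn1s1 and 1.65 for Btn1a1, against a median of 0.47 over all genes. By standard deviation Csn1s2a ranked 6 and Csn2 ranked 8 among the 19938 genes, Glycam1 ranked 16, Csn1s1 ranked 22 and Btn1a1 ranked 238. The remaining 4 genes spanned 0.79 (Csn3), 0.83 (Wap), 0.95 (Xdh) and 1.1 (Mfge8).

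**Figure D1:**
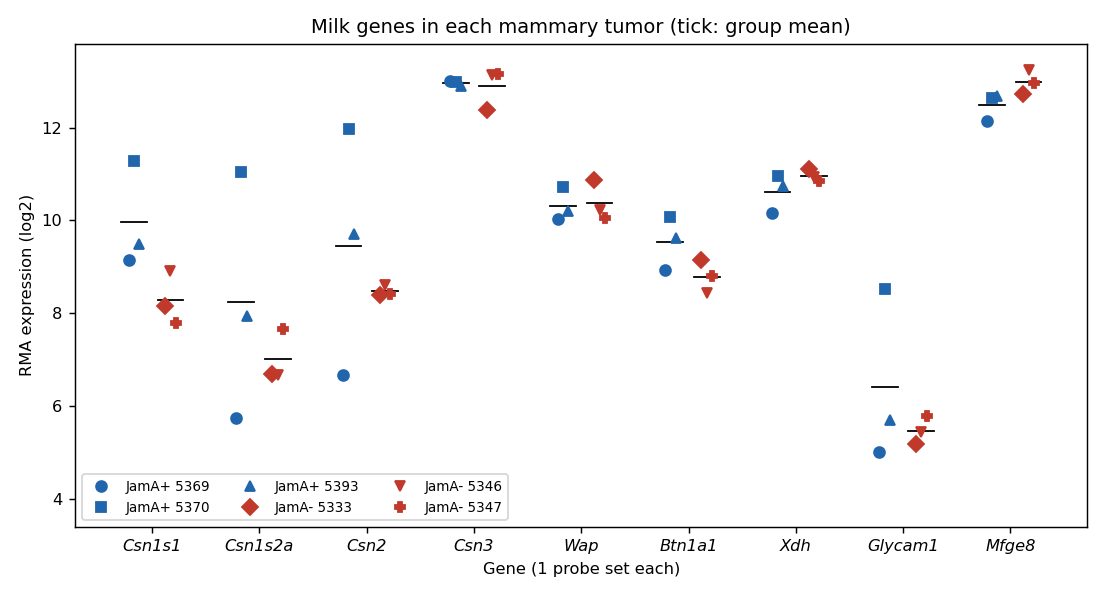
The 9 measured milk genes are on the horizontal axis and their RMA values, log2, on the vertical axis, with blue symbols for the 3 JamA+ and red ones for the 3 JamA- tumors and ticks at the group means. Tumor 5370 (blue squares) stands highest in Csn1s1, Csn1s2a, Csn2, Btn1a1 and Glycam1, while Csn3 spans 0.79 over the 6 tumors.

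Csn2, the beta-casein gene, was 8.4, 8.6 and 8.42 in JamA- tumors 5333, 5346 and 5347, and 6.68, 11.96 and 9.7 in JamA+ tumors 5369, 5370 and 5393. The JamA- tumors thus lay within 0.2 of each other, and the JamA+ tumors lay on both sides of them. Tumor 5370 stood 38.9-fold above tumor 5369 of the same genotype. The difference of JamA- minus JamA+ was -0.97 (standard error 1.11, 95% interval -3.56 to 1.61, adjusted p = 0.765 from limma), smaller than the spread within the JamA+ group.

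Csn1s2a, an alpha-casein gene, was 6.69, 6.68 and 7.67 in the JamA- tumors and 5.74, 11.04 and 7.95 in the JamA+ tumors, in the same order. Again tumor 5370 was highest and tumor 5369 lowest of all 6, and the groups overlapped. Its difference was -1.23 (standard error 1.14, 95% interval -3.88 to 1.42, adjusted p = 0.707 from limma). In tumor 5370 it was 8.51-fold above the next tumor, 5393.

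Csn1s1, the other alpha-casein gene of the list, was 8.15, 8.9 and 7.78 in JamA- and 9.15, 11.28 and 9.49 in JamA+ tumors. This was the only one of the 4 caseins whose groups did not overlap, with tumor 5369 just 0.25 above tumor 5346. Tumor 5369, lowest of all for Csn2 and Csn1s2a, lay below only tumors 5370 and 5393 for Csn1s1. The difference was -1.70 (standard error 0.54, 95% interval -2.96 to -0.43, unadjusted p = 0.015 and adjusted p = 0.378 from limma). An exact two-sided permutation test gave 0.1, the smallest p that 3 against 3 tumors allow.

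Csn3, the kappa-casein gene, varied less than the other 3 caseins of the list. It was 12.37, 13.13 and 13.16 in JamA- and 13.01, 12.98 and 12.9 in JamA+ tumors, so that the 3 JamA+ tumors lay within 0.11 of each other while their Csn2 values spanned 5.28. Tumor 5333 was the lowest. The difference was -0.08 (standard error 0.21, 95% interval -0.57 to 0.42, adjusted p = 0.913 from limma).

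Glycam1 followed Csn2 and Csn1s2a in its extremes. It was 5.19, 5.45 and 5.78 in JamA- and 5.02, 8.53 and 5.7 in JamA+ tumors. Only in tumor 5370 did it exceed the array medians, which lay between 6.23 and 6.34, and it stood there 2.75 on the log2 scale above the next tumor, which understates the difference if the lower values are background. Its difference was -0.94 (standard error 0.79, 95% interval -2.79 to 0.90, adjusted p = 0.677 from limma). The 9 measured genes of lymph nodes and lymphocytes, among them Madcam1, Chst4 and Fut7 of high endothelium, had a mean deviation of 0.01 in tumor 5370 and between -0.04 and 0.06 over all tumors. In tumor 5370 Madcam1 and the lymphocyte gene Ms4a1 had their lowest values, 5.3 and 3.24. The lymphocyte genes Cd3d and Cd2 had their highest there, 4.74 and 5.45, with Cd2 at 5.44 in tumor 5347. The rest of the list lay between their extremes, and all 9 genes were below every array median. Between the genotypes none of the 9 passed a 1.3-fold limit together with an unadjusted p below 0.05, with differences of 0.19 for Madcam1 and 0.14 for Cd79a.

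Btn1a1, the butyrophilin gene, was 9.14, 8.43 and 8.8 in JamA- and 8.93, 10.08 and 9.61 in JamA+ tumors. Tumors 5370 and 5393 were the 2 highest, and tumor 5369 lay inside the JamA- range. Its difference was -0.75 (standard error 0.30, 95% interval -1.45 to -0.05, unadjusted p = 0.0387 and adjusted p = 0.44 from limma). Of the other fat globule genes, Xdh was 11.1, 10.94 and 10.85 in JamA- and 10.15, 10.95 and 10.74 in JamA+ tumors, with a difference of 0.35 (standard error 0.21, 95% interval -0.13 to 0.83, adjusted p = 0.557 from limma). Its lowest value was again in tumor 5369, without which the difference was 0.12, and with quantile normalization of all probe sets it was 0.17.

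Mfge8, the lactadherin gene, pointed the other way. It was 12.72, 13.24 and 12.97 in JamA- and 12.14, 12.64 and 12.68 in JamA+ tumors, without overlap, the nearest tumors of the groups being 0.04 apart. The difference was 0.49 (standard error 0.19, 95% interval 0.04 to 0.94, unadjusted p = 0.0373 and adjusted p = 0.438 from limma, exact permutation p = 0.1). Wap was 10.87, 10.23 and 10.05 in JamA- and 10.04, 10.71 and 10.2 in JamA+ tumors, and tumors 5333 and 5370, of different genotypes, were its highest. Its difference was 0.07 (standard error 0.25, 95% interval -0.52 to 0.66, adjusted p = 0.939 from limma).

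**Figure D2:**
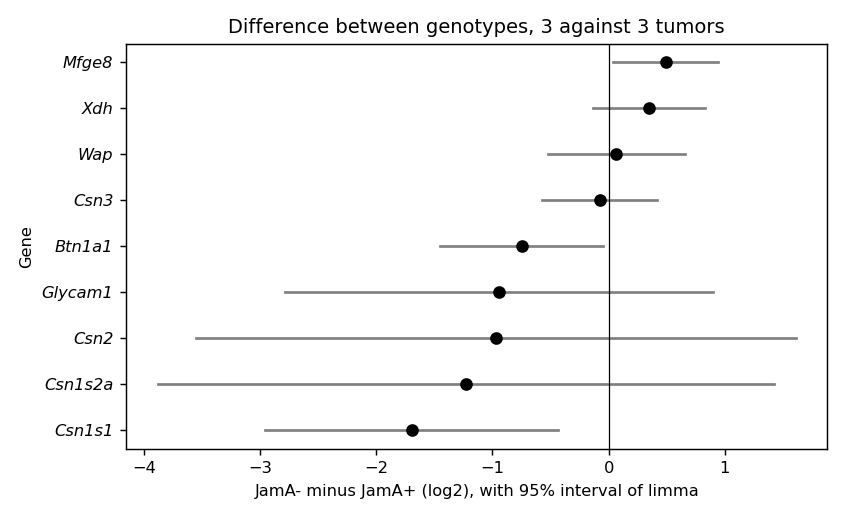
Difference between genotypes on the log2 scale (horizontal axis, JamA- minus JamA+) for each measured milk gene (vertical axis), with points for the difference of means of 3 tumors each and lines for the 95% interval of limma. The intervals of Csn1s1 (-2.96 to -0.43), Btn1a1 and Mfge8 leave out 0, and those of Csn2 and Csn1s2a are the widest.

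Between the genotypes none of the 9 genes passed the Benjamini-Hochberg adjustment over all 35557 probe sets in limma, which 0.00281% of probe sets did, and 3 had an unadjusted p under 0.05, as did 10.9% of probe sets. Signature criteria, inferred from the paper's signature list, were a fold of at least 1.3 with an unadjusted p under 0.05. Here they called 1547 probe sets lower and 1405 higher, more than that list holds, so the study's own rule or test differed. These criteria were met lower in JamA- tumors by 2 of the 9, Csn1s1 and Btn1a1, and higher by 1, Mfge8. Of all probe sets 4.35% met them lower and 3.95% higher, and over the 19938 genes with 1 probe set each it was 0.592% and 4.73%. Groups did not overlap in the lower direction for 1 of the 9 genes, against 6.1% of probe sets, and in the higher direction for 1, against 9.74%. These shares are over all probe sets, and those over genes with 1 probe set each were not computed. The median difference of the 9 genes was -0.75, where that of all genes was 0.09, and 6 of the 9 lay below 0, as did 28.2% of all genes. That median rests on tumor 5370. Without it the median was 0.17, Csn1s2a, Csn2 and Glycam1 stood at 0.17, 0.28 and 0.11, and Btn1a1 no longer met the criteria at -0.48, while Csn1s1 still did at -1.04 and Xdh and Mfge8 met them higher. Without tumor 5369 the criteria were met lower by 4 genes, Csn1s1, Csn1s2a, Csn2 and Btn1a1, and higher by none. Without tumor 5347 none met them. Without tumor 5346 or tumor 5393 Csn1s1 was the only one lower, and Mfge8 met them higher without tumor 5393 but not without tumor 5346. With an equal-variance test of each probe set alone none of the 9 met them, and with quantile normalization between arrays Mfge8 did not, at 0.28.

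All 36 pairs of the 9 genes were compared over the 6 tumors. The 5 widely varying genes formed 10 pairs with Pearson's r between 0.74 and 0.97. They were chosen by their spread after their values were seen. All 5 were highest in tumor 5370, so a high r between them is partly built in by that choice. The median r of the 10 pairs was 0.79 over all tumors and 0.39 without tumor 5370. Csn1s2a and Glycam1 had the highest r at 0.97 (exact permutation p = 0.00556, adjusted p = 0.1 over the 36 pairs, Spearman's rho 0.89 with exact p = 0.0333 and adjusted p = 0.525). With the 2 tumors farthest from the median of Csn1s2a left out, 5369 and 5370, r was 0.87. Csn1s2a and Csn2 had an r of 0.96 (exact permutation p = 0.00556, adjusted p = 0.1, rho 0.83 with exact p = 0.0583 and adjusted p = 0.525), and 0.66 without the same 2 tumors. For Csn2 and Glycam1 r was 0.91 (exact permutation p = 0.0125, adjusted p = 0.15, rho 0.83 with exact p = 0.0583 and adjusted p = 0.525), and 0.42 without them. None of the 36 pairs passed the adjustment by r or by rho, while 4 by r and 2 by rho had an unadjusted exact p under 0.05.

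Csn1s1 joined these genes through tumor 5370. Its r was 0.74 with Csn2 (exact permutation p = 0.112, adjusted p = 0.35, rho 0.60 with exact p = 0.242 and adjusted p = 0.791), but 0.16 without tumors 5347 and 5370 and 0.09 without tumor 5370 alone. With Csn1s2a it was 0.75 over all tumors (exact permutation p = 0.111, adjusted p = 0.35, rho 0.43 with exact p = 0.419 and adjusted p = 0.852), 0.32 without tumors 5347 and 5370 and -0.13 without tumor 5370. Csn3 had an r of 0.02 with Csn2 and an exact permutation p of 0.932 (adjusted p = 0.957, rho -0.09 with exact p = 0.919 and adjusted p = 0.919, r = 0.10 without tumors 5369 and 5370). Its lowest r was with Wap, at -0.76 (exact permutation p = 0.0528, adjusted p = 0.331, rho -0.60 with exact p = 0.242 and adjusted p = 0.791), and -0.12 without tumors 5333 and 5347. Over all pairs the median r was 0.37, and 30 of the 36 were above 0. The median was 0.18 without tumor 5370 and 0.58 for deviations from the mean of each genotype.

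**Figure D3:**
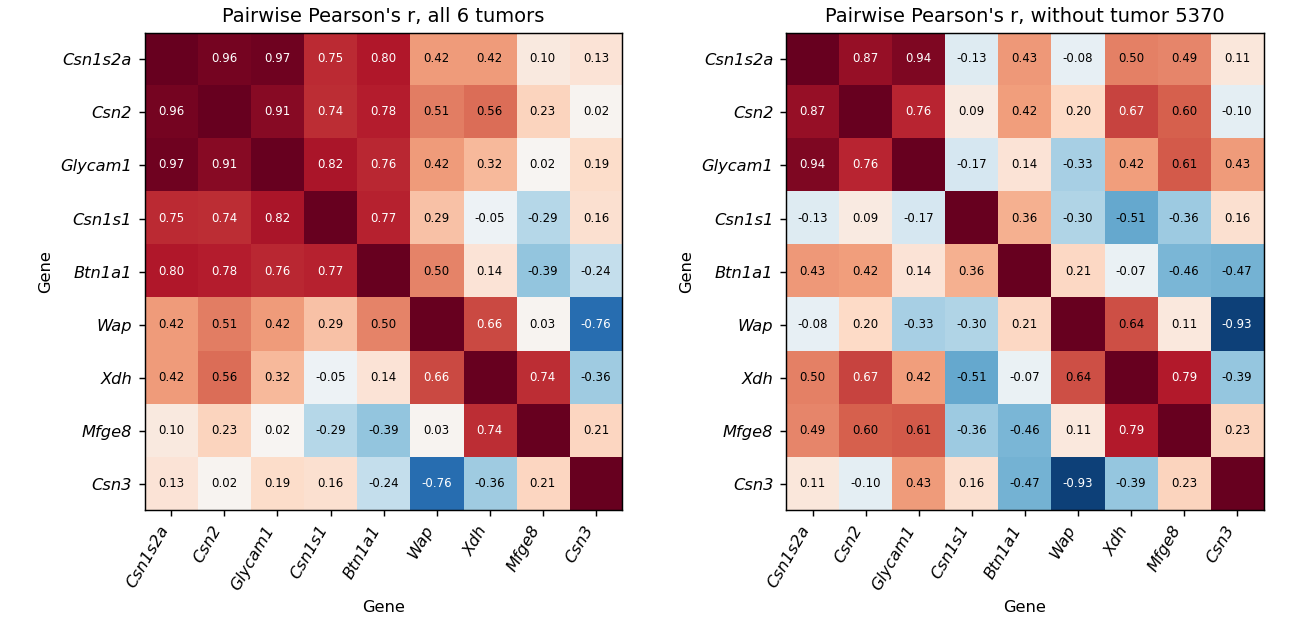
Pearson's r for each pair of the 9 measured milk genes (both axes list the genes; the number in each cell and its colour, red above 0 and blue below 0, give r) over all 6 tumors (left) and without tumor 5370 (right). Without tumor 5370, Csn1s2a, Csn2 and Glycam1 have an r of 0.76 to 0.94 with each other, and Glycam1 is then below every array median. With tumor 5369, their lowest, left out as well (not drawn), r is 0.42 to 0.87. Csn1s1 with Csn2 goes from 0.74 to 0.09 without tumor 5370.

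The caseins form a cluster on chromosome 5, and the wide spread was seen in 3 genes that follow each other in it. In the gene order of RefSeq, Csn1s1, Csn2 and Csn1s2a follow each other, with ranges over the 6 tumors of 3.5, 5.28 and 5.3. The next measured genes before Csn3 had low values, below every array median in all 6 tumors, where a probe set may be unable to show a spread. Their ranges were small. These were Csn1s2b, a further alpha-casein gene, at 0.27, Prr27 at 0.27, Gm7337 at 0.56, Odam at 0.59 and BC037156 at 0.66. Csn3, with values far above the array medians, spanned 0.79. On the other side stood Sult1e1, the estrogen sulfotransferase gene, at 0.72, with values as low. Csn1s2b was between 4.79 and 5.06, with tumor 5370 the highest by 0.03. Of 15 measured genes in the wider neighbourhood, Sult1e1 was the only one to meet the signature criteria, at 0.39 higher in JamA- (adjusted p = 0.42 from limma), where 4.73% of all genes met them higher. The list's median difference was 0.08. Of these 15, Smr2, Smr3a, Prol1 and Amtn also had a standard deviation of at least 0.5. Their pattern was not that of the caseins, since Prol1, a salivary mucin gene, was 9.19 in tumor 5369 and 5.26 in tumor 5370, and Smr2 was 7.72 in tumor 5333 and 4.55 in tumor 5370.

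**Figure D4:**
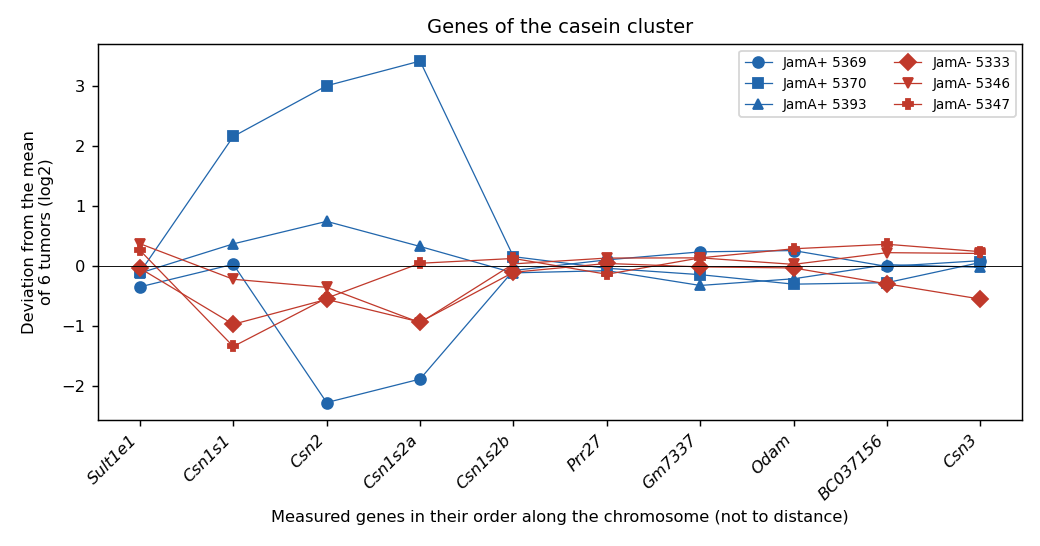
Deviation of each measured gene of the casein cluster from its own mean of 6 tumors (vertical axis, log2), with genes in their order along the chromosome but not to distance (horizontal axis), with lines that join the values of each tumor (blue JamA+, red JamA-). Tumor 5370 stands above all others at Csn1s1, Csn2 and Csn1s2a and lies between -0.31 and 0.15 of each gene's own mean from Csn1s2b to Csn3.

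Of 28 other measured genes of milk secretion 4 had a standard deviation of at least 0.5, Cd36, Cidea, Thrsp and Slc2a1, against 2.31% of all genes, with ranges of 2.2, 1.64, 1.62 and 1.43. Cd36, a fatty acid receptor also found on adipocytes and macrophages, was 8.24 in tumor 5370 and 6.04 in tumor 5369, its extremes. Between genotypes, Plin2, which coats cytoplasmic lipid droplets, was the only one to meet the signature criteria, at 11.4, 11.5 and 11.7 in JamA- and 11.01, 11.22 and 11.18 in JamA+ tumors (difference 0.40, standard error 0.13, adjusted p = 0.386 from limma). The fold of Plin2 was 1.32, close to the limit of 1.3, and 4.73% of all genes met the criteria higher. The list's median difference was 0.03. Its mean deviation was 0.05 in tumor 5370, where the mean of the 4 caseins stood at 2.16. In that casein mean Csn3 stood at 0.055, and Csn1s1, Csn1s2a and Csn2 together at 2.86. Of the whey and secreted proteins in it, Wfdc18 ranged from 12.7 to 13.31, lactoferrin (Ltf) from 11.32 to 12.51 and transferrin (Trf) from 13.55 to 14.2. In Trf the highest values were 14.2 and 14.18, in tumors 5346 and 5347. Ltf was 12.51 in tumor 5369, where Csn2 was lowest, and close to it at 12.48 in tumor 5347.

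Genes that control alveolar differentiation were set beside them. Of 22 measured, 3 met the criteria, all higher in JamA- tumors, against 4.73% of all genes higher and 0.592% lower: the cyclin Ccnd1 at 0.45 (adjusted p = 0.347 from limma), the estrogen receptor gene Esr1 at 0.38 (adjusted p = 0.354) and Stat3, a factor of involution after lactation, at 0.40 (adjusted p = 0.429). The list's median difference was 0.20. Stat5a was 9.31, 9.73 and 10.08 in JamA- and 8.95, 9.48 and 9.56 in JamA+ tumors, and Elf5 was 10.55, 10.62 and 11.11 against 11, 11.04 and 10.96. Neither was highest in tumor 5370, the tumor with the highest casein mean, though Elf5 there was below tumor 5347 alone. The part of Stat5a and Elf5 in the casein values was not tested. Cish, a target gene of STAT5, ranged from 6.99 to 7.44 with 7.41 in tumor 5370, and Socs2, another, from 9.69 to 11.07 with 9.8 in tumor 5370. Prlr had no probe set with its symbol alone.

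**Figure D5:**
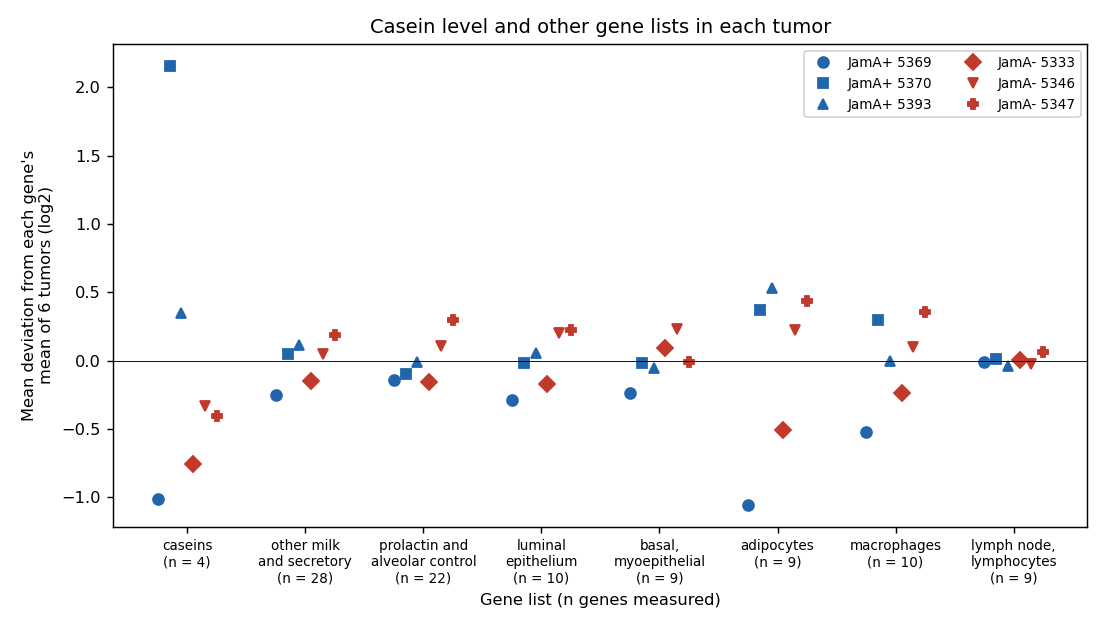
Mean log2 deviation from each gene's mean of 6 tumors (vertical axis) for the 4 caseins and 7 other gene lists (horizontal axis, with the number of genes measured), with blue symbols for the 3 JamA+ and red ones for the 3 JamA- tumors. The caseins reach 2.16 in tumor 5370, the adipocyte markers are lowest in tumor 5369 at -1.05, and the luminal markers stay between -0.29 and 0.22.

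Markers of other cells differed between the tumors too, and fewer cells of a type cannot be told apart from less RNA per cell in whole tumors. The 9 measured adipocyte markers had a mean deviation of -1.05 in tumor 5369 and -0.51 in tumor 5333, the tumors with the lowest casein means, and of 0.22, 0.43, 0.37 and 0.53 in tumors 5346, 5347, 5370 and 5393. Their summed level ran from 9.64 to 10.7 on the log2 scale in JamA- and from 9.08 to 10.9 in JamA+ tumors, and none of them met the criteria between the genotypes (Lep 0.16 and Lipe 0.22 had the smallest p). All 9 were lowest in tumor 5369, as were all 10 macrophage markers. Macrophage markers, 10 of 10 measured, ran from -0.52 in tumor 5369 to 0.35 in tumor 5347, with 0.30 in tumor 5370, and none met the criteria (Fcgr1 0.23 and Itgam 0.26 had the smallest p). Of the basal and myoepithelial genes, 9 measured, Acta2 at 0.90 (adjusted p = 0.208 from limma) and Cnn1 at 0.44 (adjusted p = 0.42) met them higher, against the same 4.73% of all genes, and the list stood at -0.02 in tumor 5370. Of 8 salivary gland genes 1, Aqp5, met them higher, at 0.82 (adjusted p = 0.386 from limma), against the same 4.73%. The salivary list was highest in tumor 5333, at 1.12, and lowest in tumor 5370, at -0.58. The value in tumor 5333 came mostly from Dcpp1 at 11.24 and Dcpp2 at 10.72, against at most 8.22 and 6.08 in the other tumors. Smr2 and Smr3a were highest there too, the rest of the list was not, and Amy1 was lowest there, at 5.2. Prol1, Smr2 and Smr3a are also among the casein cluster neighbours. The part of these cells in the casein values was not tested. Over all 19938 genes, 36.7% had their lowest value in tumor 5369 and 8.72% their highest in tumor 5370, where it was 6 and 5 of the 9 milk genes.

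The genes whose values across the 6 tumors were most like the mean of the 4 caseins were then named, among genes with a standard deviation of at least 0.5 that are in none of the lists. The highest r was 0.92, of Ifi205, an interferon-inducible gene, and it was 0.50 without tumor 5370. Ucp1, the uncoupling protein of brown fat, and Muc4, a membrane mucin of epithelia, were at 0.91. Gys2, a glycogen synthase, was at 0.88, the chemokine Ccl8 at 0.83 and the acute-phase gene Orm1 at 0.80. The lectin Clec10a was at 0.797 and the matrix gene Efemp1 at 0.78. These r are descriptions over 6 tumors that share 1 high tumor. Without tumor 5370 r was 0.87 for Gys2, 0.83 for Ccl8, 0.89 for Orm1, 0.68 for Clec10a and 0.80 for Efemp1. Ucp1 was 5.06, 4.95 and 5.5 in JamA- and 4.99, 7.12 and 6.62 in JamA+ tumors, and its r was 0.87 without tumor 5370. Muc4 was 5.92, 5.59 and 6.15 against 5.67, 7.05 and 6.07, and its r was 0.47 without tumor 5370. Of the 432 genes with such a spread outside the lists, 6 (1.39%) had an r of at least 0.8 with the casein mean. Csn1s1, Csn1s2a, Csn2 and Csn3 are part of that mean, and Csn3 had an r of only 0.17 with it. Among the milk genes outside the caseins Glycam1 had an r of 0.97, Btn1a1 of 0.81, Wap of 0.40, Xdh of 0.35 and Mfge8 of 0.06.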

How the data were processed

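Groups were taken from sample titles, 3 against 3 tumors with 1 array each. The deposited table holds log2 values of 35557 probe sets, rounded to 2 decimals. The submitters' processing notes name RMA and Affymetrix Expression Console 1.1, with no settings stated. RMA scales the arrays to each other, so total RNA cannot be compared, yet array medians still ran from 6.23 to 6.34. No batch is given, and tumor numbers do not pair the groups. The number of arrays limits the precision.

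From these values, differences, standard errors, 95% intervals and p-values were computed with limma 3.58.1 in R 4.3.3 (lmFit and eBayes, no covariate, Benjamini-Hochberg over all probe sets), and checked on simulated data. Correlations over 6 tumors had exact two-sided permutation p-values, adjusted over 36 pairs (Python 3.11.15). The annotation pairs 21789 probe sets with 1 symbol, 1621 with several, and leaves 12147 unlisted, and 21698 were matched to RefSeq symbols of GRCm38.p6 by gene identifier. The paper's text does not describe the test of the arrays, and the signature criteria were inferred from the smallest fold and the largest p in its supplementary signature list. The members and gene lists (other milk genes, alveolar control, casein cluster neighbours, luminal, basal, adipocyte, lymph node, macrophage and salivary genes) were chosen with earlier results of these data known. Named are all members, F11r, up to 4 genes of each list that met the criteria or else 2 by smallest p, and the 8 genes most like the casein mean. Other genes, such as Csn1s2b, Stat5a, Elf5 and Prol1, were named after their values were seen. Alternatives were other tests, other scalings, a filter on dim probe sets, a higher fold and leaving out each tumor.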

Additional observations from a re-analysis of the deposited data

How the results depend on the processing

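No milk gene passed the adjustment over all probe sets under any alternative run. The number meeting the signature criteria lower was 2 except with the equal-variance test (0), and 0 to 4 with 1 tumor left out. The number higher was 1 except with the equal-variance test (0), quantile normalization of all probe sets (0) and of the listed ones (0) and a fold of at least 1.5 (0, chosen after seeing the data), and 0 to 2 with 1 tumor left out. The median difference lay between -1.06 and 0.17 with 1 tumor left out, positive only without tumor 5370, and between -0.91 and -0.69 under the scalings. The median r lay between 0.18 and 0.61 with 1 tumor left out, and was 0.26 as Spearman's rho. Of 117 single-gene differences, 107 kept their direction. That count includes settings that leave each difference as it was and so could not turn it. These were the equal-variance test, limma with an intensity trend and robust prior, and the filter on dim probe sets. Wap turned to -0.13 with array weights, to -0.13 with both quantile normalizations, to -0.18 without tumor 5333 and to -0.07 without tumor 5369. Csn3 turned to 0.069 with array weights and to 0.18 without tumor 5333, and was -0.29 with quantile normalization of all probe sets. Btn1a1 was -1.13 with array weights. Csn1s2a, Csn2 and Glycam1 turned to 0.17, 0.28 and 0.11 without tumor 5370, and stood at -2.48, -2.36 and -1.64 without tumor 5369. With 1 tumor left out Csn3 lay between -0.21 and 0.18, and Wap between -0.18 and 0.26. The causes were not tested. The mean over probe sets of a gene was not run, since each gene had 1. No paired analysis was possible because the groups share no replicate numbers. RMA values carry no detection call, so low values such as those of Glycam1 cannot be set against background.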
